A study of Mus musculus with 12 samples.

Results

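Genes of cholesterol and fatty acid synthesis were followed in bulk RNA-seq of pancreatic islets. The set was a list of 32 gene symbols: 17 for enzymes of the sterol pathway, 5 for sterol sensing and transport, and 10 for fatty acid synthesis, elongation and desaturation. An Ensembl ID was found for 31 of the 32 symbols among the 37991 genes of the count table, and all 31 passed the filter on low counts, which kept 15961 genes. The symbol without a matching ID, Hmgcs1, was not analysed here. The rule used gene names alone, not measured values, but the list was chosen with earlier results of these data known.

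Wt and Tg7 islets were compared, each at 2w and 12w of age, with 3 libraries per group. Tg7 mice overexpress miR-7 specifically in β-cells, and the Wt mice were their littermates. All mice were male and on the C57BL/6 strain, and islets of at least 3 animals were pooled before RNA was extracted for each library. The study describes the Tg7 mice as normoglycaemic at 2w and hyperglycaemic at 12w, so genotype and blood glucose cannot be told apart at 12w. The comparisons ask how Tg7 islets differed from Wt islets at each age, and how both changed from 2w to 12w.

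The sterol pathway builds cholesterol from acetyl-CoA: early enzymes make isoprenoid units, squalene is assembled and oxidised, and the late enzymes cyclise it and trim the sterol. Fatty acid synthesis starts from the same acetyl-CoA, made in the cytosol by Acly, and Fasn assembles the chain, which elongases lengthen and desaturases alter. Srebf2 and Srebf1 encode SREBP transcription factors held in the endoplasmic reticulum when sterols are plentiful, with the Insig proteins as part of the anchor. SREBP2 is best known for the sterol genes and SREBP1c for the fatty acid genes. In β-cells these pathways supply membranes for secretory granules, and granule membranes are rich in cholesterol.

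The miRNA overexpressed in Tg7 islets and the places where its seed meets the members are shown first, because a seed match is the simplest relation a member could have to the transgene. The mature miR-7a-5p sequence from RefSeq (GRCm38.p6) carries its seed, bases 2 to 8, in capitals.

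miR-7a-5p: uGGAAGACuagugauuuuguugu

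A 7-base match to that seed was found in the annotated 3′ UTR of 5 of the 31 members, or 16.1%, against 13.2% of 14406 tested genes with a 3′ UTR. The median 3′ UTR length was 1459 bases in the members and 1151 bases in the tested genes. Each site is printed with 12 bases before and 6 after it, on the strand of the gene, in NCBIM37 (mm9) coordinates, with the match in capitals.

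Lss, chr10:76017282-76017288, plus strand: ccctgacccataGTCTTCCctccga
Hsd17b7, chr1:171880024-171880030, minus strand: gctaagtaacttGTCTTCCttgtat
Srebf1, chr11:60013376-60013382, minus strand: tcattggctgtgGTCTTCCagaggg
Scd2, chr19:44379849-44379855, plus strand: ttcgaggggacaGTCTTCCtgggct
Fads1, chr19:10270149-10270155, plus strand: acaaagagtgagGTCTTCCctccca

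The Srebf1 site is the one followed by an A. Of these 5 genes, Lss at 2w was the one that passed the genotype test below. A match of letters is a description and says nothing of binding.

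Promoters of 25 of the 32 listed genes, Hmgcs1 included, were in the RefSeq promoter table, which gives 250 bases before to 50 bases after each start of transcription. The NF-Y box (CCAAT, either strand) was in 21 of the 25 genes, or 84.0%, against 41.1% of 27025 genes in the table. The Sp1 box (GGGCGG, either strand) was in 19 of 25, or 76.0%, against 38.2%. Each of the boxes was in 92.9% of sterol synthesis genes with an entry, whereas in the fatty acid genes the shares were 57.1% and 28.6%. The E-box CACGTG was in 5 of 25, or 20.0%, against 8.09%. The strict sterol regulatory element TCACNCCAC was in 1 of 25, or 4.0%, against 1.44% of all genes, and that gene was Hmgcs1. These windows are rich in G and C, which was not adjusted for, and no match says only that these letters are not in the window.

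Promoters are printed for Insig1, which had the largest change with age, and for Lss and Fasn, one enzyme of each pathway that was lower in Tg7 islets. They are in GRCm38.p6 coordinates, on the strand of the gene, with NF-Y and Sp1 boxes in capitals.

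Insig1, chr5:28071162-28071461, plus strand: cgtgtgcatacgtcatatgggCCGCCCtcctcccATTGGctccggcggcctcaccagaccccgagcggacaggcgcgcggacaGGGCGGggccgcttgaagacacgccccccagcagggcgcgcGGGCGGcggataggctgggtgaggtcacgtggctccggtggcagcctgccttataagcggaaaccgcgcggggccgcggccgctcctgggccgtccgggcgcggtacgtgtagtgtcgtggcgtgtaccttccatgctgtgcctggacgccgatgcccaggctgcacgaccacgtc
Lss, chr10:76531355-76531654, plus strand: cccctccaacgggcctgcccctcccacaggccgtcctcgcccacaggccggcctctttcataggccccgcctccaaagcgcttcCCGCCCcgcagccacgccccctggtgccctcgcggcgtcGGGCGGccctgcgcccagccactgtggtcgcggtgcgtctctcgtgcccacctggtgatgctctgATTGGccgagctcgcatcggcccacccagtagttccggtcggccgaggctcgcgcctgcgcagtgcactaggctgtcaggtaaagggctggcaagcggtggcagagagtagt
Fasn, chr11:120824498-120824797, minus strand: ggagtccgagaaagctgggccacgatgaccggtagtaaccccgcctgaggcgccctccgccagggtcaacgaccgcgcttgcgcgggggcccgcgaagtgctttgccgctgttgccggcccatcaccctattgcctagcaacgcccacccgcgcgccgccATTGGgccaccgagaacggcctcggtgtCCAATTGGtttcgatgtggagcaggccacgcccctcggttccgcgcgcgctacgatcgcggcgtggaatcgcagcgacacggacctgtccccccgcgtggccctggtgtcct

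The Insig1 promoter held 1 NF-Y and 3 Sp1 boxes, and also 1 E-box, 101 bases before the start. The Lss promoter held 1 NF-Y box at 62 bases and 2 Sp1 boxes at 166 and 127 bases before the start. The Fasn promoter held 3 NF-Y boxes, at 90, 62 and 59 bases before the start, of which the last 2 overlap on opposite strands, and no Sp1 box of this spelling.

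**Figure D1:**
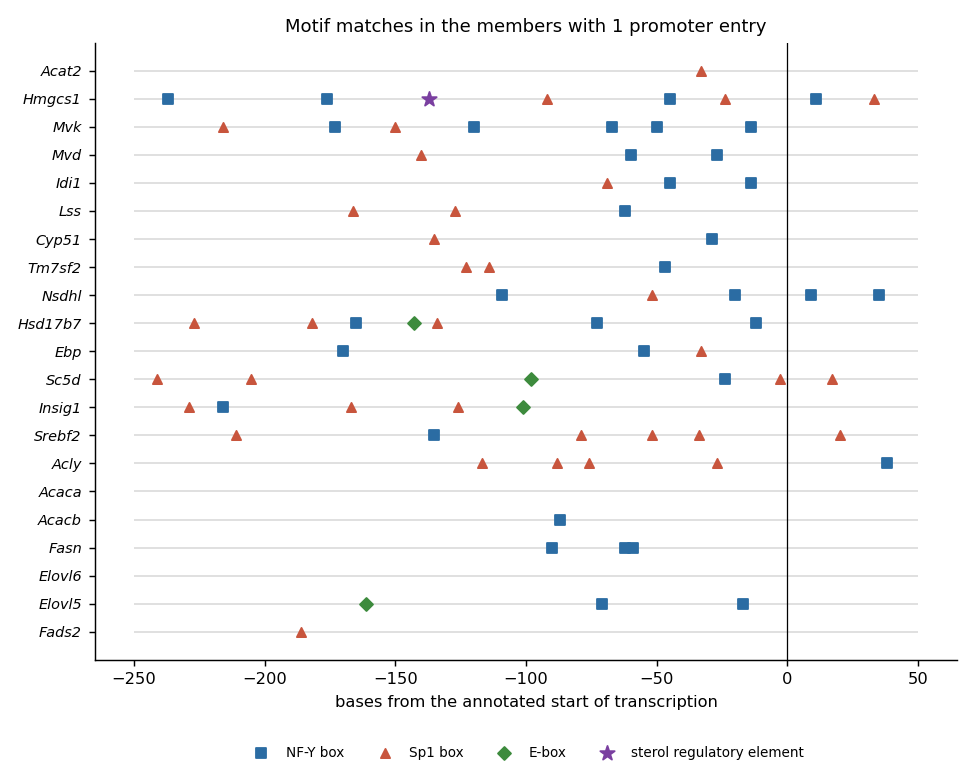
Positions of motif matches on either strand (squares NF-Y box, triangles Sp1 box, diamonds E-box, star sterol regulatory element) in bases from the annotated start, for the listed genes with 1 promoter entry. NF-Y and Sp1 boxes fill the sterol synthesis rows at the top, the 1 star is in the Hmgcs1 row, and Acaca and Elovl6 hold none of the motifs.

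The libraries held between 11610697 and 17515758 counts. TMM factors, which correct library size for the makeup of the RNA, were 0.684 to 0.871 in Wt 12w and 0.968 to 1.19 in the other groups. Levels below are CPM, counts scaled to a common library size with these factors. Markers of β-cells fell in Tg7 islets (6 of 8 passed the test at 2w, median log2 fold change −2.41, and 7 of 8 at 12w, median −3.14), and stellate and fibroblast markers rose (5 of 7 at 2w, median 0.88, and 7 of 7 at 12w, median 3.46). All 6 endothelial markers also rose at 12w, with a median of 1.02. In whole islets fewer cells of a type and less RNA per cell cannot be told apart, and the part of these cell type changes in the results below was not tested. Mature miRNAs are not counted in these libraries, so the overexpression was not checked here. Replicate 4 of Wt 12w had the highest level of its group in 19 of 31 members, or 61.3%, against 39.1% of all tested genes. Replicate 1 of Tg7 12w had it in 17 of 31 members, or 54.8%, against 33.4%. The median SD of log2 CPM over the members was 0.364 in Wt 12w and 0.084 in Tg7 12w. The calls that turned on replicate 4 of Wt 12w are named here or with the alternatives at the end, some with both values.

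Per kb of exon, Acly, which splits citrate into cytosolic acetyl-CoA, had the highest level of the 31 members in all 4 groups. Its means were 224 ± 9.17 CPM per kb in Wt 2w, 133 ± 13.5 in Tg7 2w, 212 ± 91.4 in Wt 12w and 159 ± 5.42 in Tg7 12w (SD, n = 3). Fdps, which makes farnesyl pyrophosphate, was second in all 4 groups, at 44.0 ± 3.605, 25.6 ± 3.36, 93.0 ± 15.02 and 58.4 ± 2.96 CPM per kb. Acacb, the acetyl-CoA carboxylase tied to mitochondria and to the control of fatty acid oxidation, was last in all 4, at 0.253 ± 0.123, 0.564 ± 0.0507, 0.0889 ± 0.0227 and 0.372 ± 0.0813 CPM per kb. Insig1 moved from rank 12 in Wt 2w to rank 4 in Wt 12w, and from 14 to 3 in Tg7 islets, while ranks next to each other often lay within their SDs.

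Tg7 islets at 2w had lower levels of enzymes in both pathways. At an adjusted p below 0.05, 8 of 31 members were lower and 1 was higher, against 4.55% of the 15961 tested genes lower and 6.07% higher. The lower genes were Fdps, Sqle and Lss of sterol synthesis, Srebf2 of sterol sensing, and Acly, Fasn, Elovl6 and Elovl5 of fatty acid synthesis. The median log2 fold change of the 31 members was −0.29, and 23 of the 31 estimates were below 0, where the median over all tested genes was 0.03. Scaling by library size alone moved the median of all genes at 2w to 0.19, and members called then numbered 3 higher and 3 lower. The median of the members was then −0.13, still below that of all genes.

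Sqle, squalene epoxidase, which adds the first oxygen to squalene, had the lowest fold change of the set at 2w. It stood at 147, 125 and 160 CPM in the Wt libraries and at 73.6, 66.2 and 58.8 CPM in the Tg7 libraries. The groups did not overlap, and the Tg7 level was 0.459 of the Wt level (log2 fold change −1.12, SE 0.13, adjusted p = 0.000141). Fdps stood at 55.3, 49.4 and 58.0 CPM in Wt and 36.3, 29.0 and 29.3 CPM in Tg7 islets. All 3 Tg7 libraries were below all Wt libraries, a difference of −0.78 on the log2 scale (SE 0.14, adjusted p = 0.00315). Lss, lanosterol synthase, which closes the sterol rings and has the seed match printed above, stood at 34.5, 44.6 and 41.4 CPM in Wt and 23.5, 27.1 and 23.7 CPM in Tg7 islets. Again no Tg7 library reached a Wt library (log2 fold change −0.70, SE 0.15, adjusted p = 0.00946), a call lost with library size alone at −0.54.

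Srebf2, the SREBP gene of the sterol pathway, stood at 105, 103 and 109 CPM in Wt 2w and at 76.6, 81.9 and 66.8 CPM in Tg7 2w libraries. The log2 fold change was −0.49 (SE 0.14, adjusted p = 0.0354). The groups did not overlap, but the call was kept in only 5 of the 12 fits that left out a library: it was lost without any 1 of the Wt 2w libraries, Tg7 2w replicate 1 or 3, or Tg7 12w replicate 2 or 3. With library size alone the adjusted p was 0.279.

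Among the fatty acid genes, Acly stood at 1140, 1236 and 1175 CPM in Wt 2w and 781, 639 and 694 CPM in Tg7 2w libraries. The group means were 1184 and 705 CPM, a gap larger than the level of any other member in any library (log2 fold change −0.75, SE 0.22, adjusted p = 0.0438). Fasn, fatty acid synthase, stood at 175, 192 and 205 CPM in Wt and 158, 137 and 109 CPM in Tg7 islets, −0.50 as a log2 fold change (SE 0.14, adjusted p = 0.0395). The groups of Acly and of Fasn did not overlap, yet each call was kept in only 4 of the 12 fits without a library, those without Tg7 2w replicate 1 or a Wt 12w library. Elovl6, which lengthens palmitate to stearate, stood at 36.2, 32.5 and 38.6 CPM in Wt and 26.8, 23.0 and 21.7 CPM in Tg7 islets (log2 fold change −0.59, SE 0.13, adjusted p = 0.0119). Elovl5, an elongase of polyunsaturated fatty acids, stood at 158, 112 and 116 CPM in Wt and 76.1, 79.2 and 68.8 CPM in Tg7 islets (log2 fold change −0.78, SE 0.14, adjusted p = 0.00278). For both elongases every Tg7 library was below every Wt library, and the Elovl6 call was lost without Wt 2w replicate 3 and with library size alone (−0.42).

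Scd1, the stearoyl-CoA desaturase that makes oleate, was the member higher at 2w, and the call rests on 1 library. It stood at 14.0, 22.5 and 15.8 CPM in Wt and 24.0, 34.5 and 77.5 CPM in Tg7 islets, and its log2 estimate was 1.38 (SE 0.38, adjusted p = 0.035). Without replicate 3 of Tg7 2w the log2 fold change was 0.74 and did not pass the test, and the call was also lost, at 1.25 to 1.38, without Wt 2w replicate 1 or 3 or Tg7 12w replicate 2. The same library had the highest summed hepatocyte marker level, 369 CPM against 116 and 157 in the other two Tg7 2w libraries and 83.1 to 117 in Wt 2w, where Alb alone gave 248 CPM. Its summed adipocyte marker level was 34.3 CPM, against 15.6 and 15.7 CPM in the other two, while the defining adipocyte genes Adipoq and Plin1 were at 0.348 and 0.0497 CPM. The part of these cells in the Scd1 value was not tested. Acacb also lay higher in every Tg7 2w library, at 5.76, 4.87 and 5.66 CPM against 3.38, 1.10 and 2.82 CPM, but missed the threshold (log2 fold change 1.14, SE 0.37, adjusted p = 0.0613), which it passed under 6 of the 9 alternatives, DESeq2 among them.

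**Figure D2:**
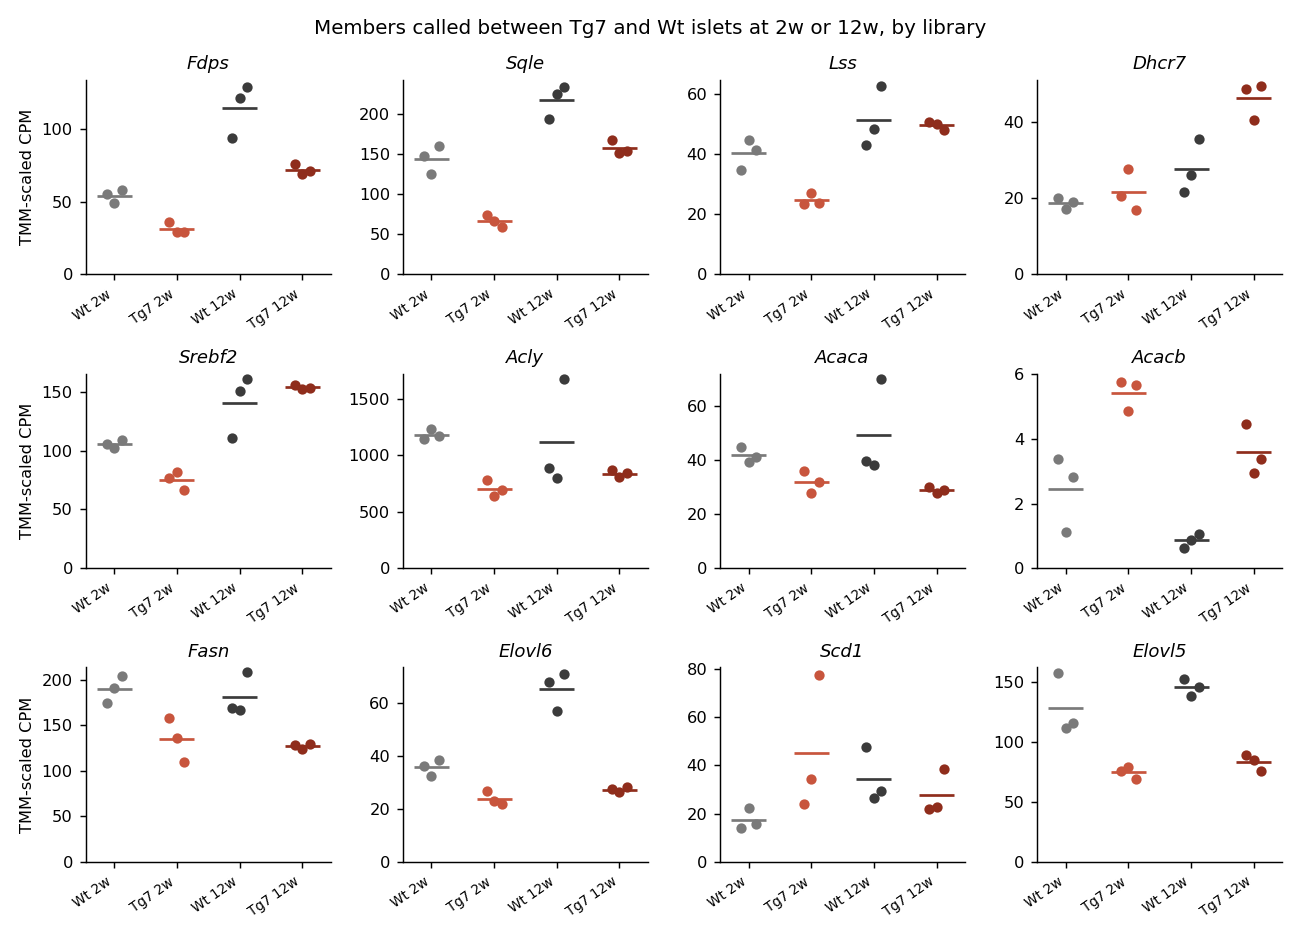
CPM after TMM scaling (vertical axes, from 0) of the 12 members that passed the test between Tg7 and Wt islets at 2w or 12w, with 1 point per library and a line at the mean of each group of 3. Sqle, Fdps, Acaca, Fasn, Elovl6 and Elovl5 lie lower in all Tg7 libraries at both ages, and Acacb lies higher at both ages. In the Scd1 panel 1 Tg7 2w library stands at 77.5 CPM.

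At 12w the lower genes were fewer in the sterol pathway and as many in the fatty acid pathway. In Tg7 islets 6 of 31 members were lower and 2 were higher, against 11.2% of tested genes lower and 12.5% higher. The lower genes were Fdps, Sqle, Acaca, Fasn, Elovl6 and Elovl5, and the higher genes were Acacb and Dhcr7. The median log2 fold change of the members was −0.12, beside −0.01 for all tested genes, and without replicate 4 of Wt 12w it was 0.06, so its sign turns on that library. Library size alone moved the median of all genes at 12w to 0.43 and that of the members to 0.33, with 7 members then called higher and 1 lower. Directions at 12w are therefore relative to the bulk of genes under TMM, and no called member changed sign under any alternative. Without replicate 4 of Wt 12w calls over all genes were 3917, beside 3772 with all libraries. The members then numbered 6 higher and 6 lower, with Idi1, Insig1, Insig2 and Scd2 added to the higher genes. The log2 fold changes of these 4 were then 1.10, 0.51, 0.48 and 0.44, beside 0.16, 0.14, 0.26 and 0.02 with all libraries.

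Elovl6 had the lowest fold change at 12w and the smallest adjusted p of the set. It stood at 67.9, 56.8 and 71.0 CPM in Wt and 27.5, 26.3 and 28.3 CPM in Tg7 islets. The groups lay far apart, with the Tg7 level at 0.419 of the Wt level (log2 fold change −1.25, SE 0.13, adjusted p = 1.91e-05). The call held under all 9 alternatives and in all 12 fits without a library. Elovl5 stood at 153, 139 and 146 CPM in Wt and 88.9, 84.8 and 75.7 CPM in Tg7 islets, again with no overlap (log2 fold change −0.81, SE 0.14, adjusted p = 0.000887), a call lost with library size alone at −0.36.

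Fasn stood at 169, 167 and 209 CPM in Wt 12w and 129, 124 and 130 CPM in Tg7 12w libraries. Its groups did not overlap and the estimate was −0.51 on the log2 scale (SE 0.14, adjusted p = 0.0187), a call lost with library size alone and when any 1 of the Tg7 12w libraries was left out. Acaca, the cytosolic acetyl-CoA carboxylase that makes malonyl-CoA for Fasn, stood at 39.6, 38.2 and 69.8 CPM in Wt and 30.1, 27.8 and 28.7 CPM in Tg7 islets. All Tg7 libraries were lower, and the highest Wt value was that of replicate 4 (log2 fold change −0.77, SE 0.20, adjusted p = 0.0122). The Acaca call was lost without Tg7 replicate 2 and, at −0.36, with library size alone. Acly showed the same library more plainly, at 884, 797 and 1673 CPM in Wt 12w against 866, 809 and 841 CPM in Tg7 12w, where the groups overlapped and the log2 fold change of −0.41 (SE 0.22) had an adjusted p of 0.196. At 2w Acaca was also lower in every Tg7 library, at 35.7, 27.7 and 31.9 CPM against 44.6, 39.3 and 41.2 CPM. It missed the threshold there (log2 fold change −0.39, SE 0.20, adjusted p = 0.22) and passed under 2 of the 9 alternatives.

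Acacb stood at 0.630, 0.873 and 1.07 CPM in Wt 12w, from 5, 11 and 16 counts, and at 4.45, 2.93 and 3.38 CPM in Tg7 12w, from 79, 53 and 59 counts. The Tg7 level was 4.06 times the Wt level, the highest fold change of the set (log2 fold change 2.02, SE 0.41, adjusted p = 0.0032). The 2 carboxylases of fatty acid metabolism thus lay on opposite sides at 12w, with Acaca lower and Acacb higher in Tg7 islets, although Acacb remained the lower of the pair per kb, at 0.372 CPM per kb against 2.83 CPM per kb for Acaca in Tg7 12w.

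In the sterol pathway at 12w, Fdps stood at 93.8, 121 and 129 CPM in Wt and 76.0, 68.8 and 71.2 CPM in Tg7 islets (log2 fold change −0.67, SE 0.14, adjusted p = 0.0032). Sqle stood at 194, 225 and 233 CPM in Wt and 167, 151 and 153 CPM in Tg7 islets (log2 fold change −0.47, SE 0.13, adjusted p = 0.0182). Neither gene overlapped between genotypes, and both calls were lost with library size alone, at −0.25 and −0.03, and that of Sqle also without Tg7 replicate 2 or 3. Dhcr7, which makes cholesterol from its 7-dehydro precursor, lay the other way, at 21.7, 26.04 and 35.4 CPM in Wt and 48.6, 40.5 and 49.3 CPM in Tg7 islets. Every Tg7 library was above every Wt library (log2 fold change 0.73, SE 0.20, adjusted p = 0.0175), though the call was lost without Wt replicate 1 or Tg7 replicate 3. At 2w Dhcr7 overlapped between genotypes, at 19.9, 17.1 and 18.9 CPM in Wt and 20.6, 27.7 and 16.8 CPM in Tg7 islets. Lss, called lower at 2w, overlapped between genotypes at 12w (log2 fold change −0.05, SE 0.15, adjusted p = 0.838).

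**Figure D3:**
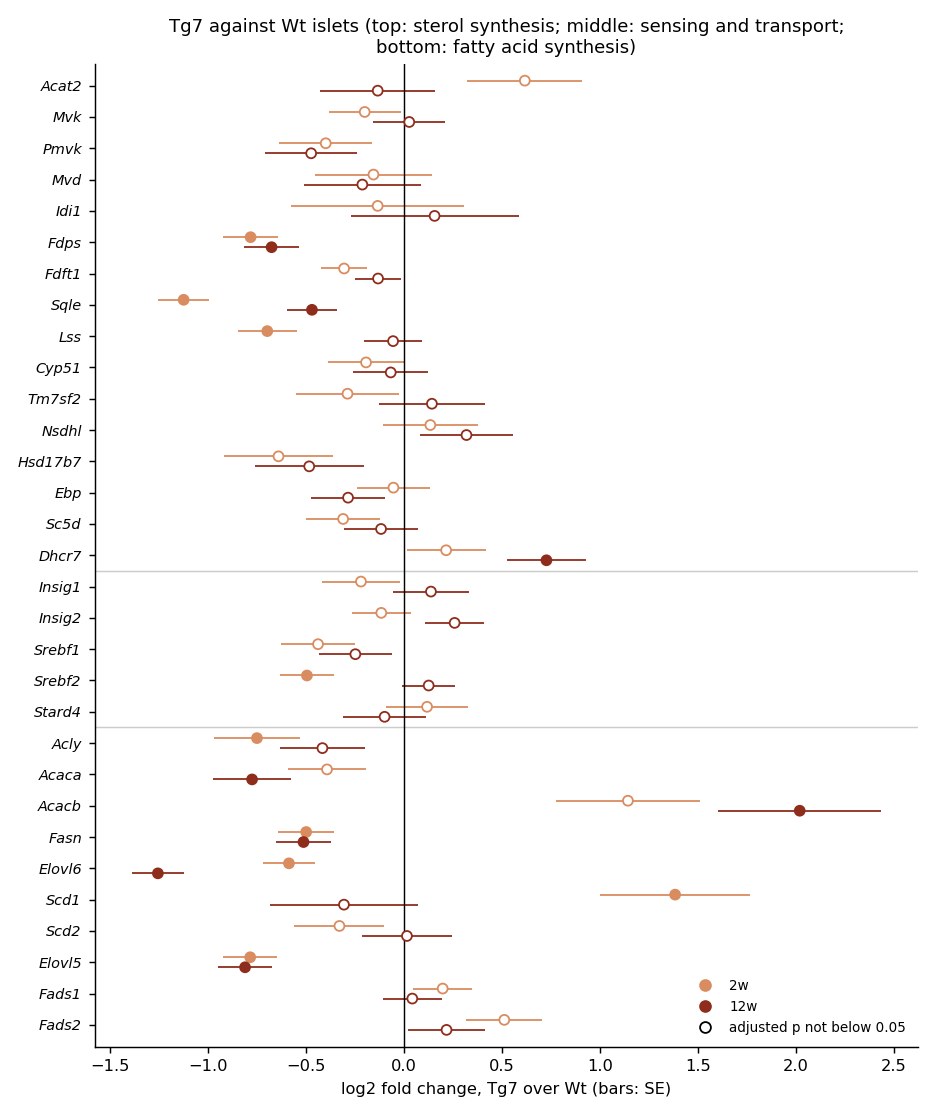
Log2 fold change of Tg7 over Wt islets (horizontal axis, bars SE) at 2w and 12w for the 31 members in pathway order, filled where the adjusted p was below 0.05. Filled points left of 0 are 8 at 2w and 6 at 12w, and the filled points right of 0 are Scd1 at 2w and Acacb and Dhcr7 at 12w.

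The 19 members that passed the test at neither age spanned the rest of both pathways. In sterol synthesis these were Acat2, Mvk, Pmvk, Mvd, Idi1, Fdft1, Cyp51, Tm7sf2, Nsdhl, Hsd17b7, Ebp and Sc5d, with log2 fold changes from −0.64 (Hsd17b7) to 0.62 (Acat2) at 2w. The isoprenoid enzymes ahead of Fdps therefore gave no call, while Fdps and the 2 enzymes that follow squalene, Sqle and Lss, did at 2w. Insig1, Insig2, Srebf1 and Stard4, a sterol carrier, lay between −0.44 (Srebf1) and 0.12 (Stard4) at 2w and between −0.25 and 0.26 at 12w. Srebf1 was lower in every Tg7 2w library, at 69.95, 66.4 and 62.6 CPM against 84.8, 92.9 and 91.8 CPM, with an adjusted p of 0.151. Of the desaturases, Scd2 had log2 fold changes of −0.33 and 0.02 at 2w and 12w, Fads1 of 0.20 and 0.04, and Fads2 of 0.51 and 0.22. Acat2 stood at 9.66, 10.8 and 20.5 CPM in Tg7 2w and at 6.35, 10.9 and 9.58 CPM in Wt 2w. Its highest 2w value, like those of Fads1 (53.7 CPM) and Fads2 (27.5 CPM), was in Tg7 2w replicate 3, the library with the high hepatocyte sum. That library was highest of its group in 9 of 31 members, or 29%, against 32.2% of all tested genes.

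The test of the difference between ages asks whether the genotype effect itself changed. None of the 31 members passed it in edgeR, against 1.18% of tested genes, while 5 had an unadjusted p below 0.05. These 5 were Sqle (difference in log2 fold change 0.65, SE 0.18, adjusted p = 0.114), Lss (0.64, SE 0.21, adjusted p = 0.179), Srebf2 (0.62, SE 0.19, adjusted p = 0.153), Elovl6 (−0.67, SE 0.19, adjusted p = 0.11) and Scd1 (−1.69, SE 0.54, adjusted p = 0.165). The first 3 had less negative or positive effects at 12w, and Elovl6 had a more negative effect. Over all genes DESeq2 called 563 differences, where edgeR called 188. The member calls of DESeq2 were 1 positive difference, Sqle, and 2 negative ones, Elovl6 and Scd1. Without replicate 4 of Wt 12w edgeR called 579 differences over all genes. Of the members it then called 6, all positive: Acly, Insig1, Lss, Scd2, Sqle and Srebf2. The differences of Sqle, Lss and Srebf2 were then 0.72, 0.82 and 0.73, and those of Acly, Insig1 and Scd2 were 0.75, 0.73 and 0.77, beside 0.33, 0.36 and 0.34 with all libraries.

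With age 4 of 16 sterol synthesis genes rose in Wt islets and 7 of 16 in Tg7 islets, and none fell. Over all members, in Wt islets 6 of 31 members were higher and 1 was lower at 12w than at 2w, against 7.9% of tested genes higher and 7.91% lower. In Tg7 islets 9 were higher and 0 lower at an adjusted p below 0.05 in edgeR, against 7.02% and 6.01%, and DESeq2 also gave 9 and 0. These comparisons share their libraries with the genotype comparisons above, so the values are set side by side only.

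Insig1, which holds SREBPs in the endoplasmic reticulum and is itself a known SREBP target, rose most. It stood at 35.4, 35.6 and 38.5 CPM in Wt 2w and 85.2, 87.6 and 160 CPM in Wt 12w, and at 32.1, 33.4 and 28.7 CPM in Tg7 2w and 126, 118 and 123 CPM in Tg7 12w. No 12w library overlapped a 2w library of its genotype. The log2 fold change was 1.61 (SE 0.20, adjusted p = 0.000136) in Wt and 1.97 (SE 0.20, adjusted p = 4.25e-05) in Tg7 islets.

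Fdps, Fdft1 (squalene synthase), Sqle and Cyp51 (lanosterol demethylase) also rose in both. Fdft1 stood at 65.3, 60.4 and 67.2 CPM in Wt 2w and 137, 138 and 114 CPM in Wt 12w, and at 49.0, 56.3 and 51.1 CPM in Tg7 2w and 128, 114 and 112 CPM in Tg7 12w. These are log2 fold changes of 1.01 (SE 0.12) in Wt and 1.18 (SE 0.12) in Tg7 islets, but 26.9% of its exon bases overlap Ctsb on the opposite strand, and whether reads were counted by strand is not stated in these sources. Fdps rose by 1.08 and 1.19, Sqle by 0.59 and 1.25, and Cyp51 by 0.74 and 0.86 on the log2 scale in Wt and Tg7 islets, in this order. In Wt islets the Sqle call was lost without Wt 2w replicate 2, and that of Cyp51 without Wt 2w replicate 2 or 3. Library size alone, which moved the median of all genes to −0.35 in Wt and −0.13 in Tg7 islets, also ended both Wt calls (Sqle 0.20, Cyp51 0.36) and that of Cyp51 in Tg7 islets (0.74).

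Lss, Nsdhl, Dhcr7 and Srebf2 passed the age test in Tg7 islets. Their log2 fold changes there were 0.9998, 0.89, 1.09 and 1.04, with SEs of 0.15, 0.24, 0.20 and 0.14. In Wt islets the estimates were 0.36, 0.71, 0.58 and 0.41, with edgeR adjusted p from 0.0541 to 0.119, and DESeq2 called Nsdhl, Dhcr7 and Srebf2 there. The difference between genotypes is the same test as the difference between ages above. Nsdhl lost its call in Tg7 islets in 5 of the 12 fits without a library, those without Tg7 2w replicate 1 or 2 or any Tg7 12w replicate.

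With all libraries few fatty acid genes changed with age. Elovl6 rose in Wt islets (log2 fold change 0.87, SE 0.13, adjusted p = 0.000595), and Acacb fell there by 1.47 on the log2 scale (SE 0.42, adjusted p = 0.0283), a call lost without Wt 2w replicate 1 or 3 or Wt 12w replicate 1 or 2. In Tg7 islets the Elovl6 estimate was 0.20 (SE 0.13) with an adjusted p of 0.357, and none of the 10 fatty acid genes passed the test there. Scd1 in Wt islets had an adjusted p of 0.0999 in edgeR and was called by DESeq2. It stood at 14.0 to 22.5 CPM at 2w and at 47.6, 26.5 and 29.5 CPM at 12w. Summed hepatocyte markers in Wt islets were 83.1 to 117 CPM at 2w and 236, 149 and 136 CPM in the same 12w libraries. In each group the library with the highest Scd1 level also had the highest hepatocyte sum. The part of these cells in the Scd1 change with age was not tested. Without replicate 4 of Wt 12w edgeR called a fall of Acly and Scd2 in Wt islets. Acly was then at −0.50 (adjusted p = 0.00754), beside −0.08 with all libraries. Scd2 was at −0.47 (adjusted p = 0.0334), beside −0.04.

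**Figure D4:**
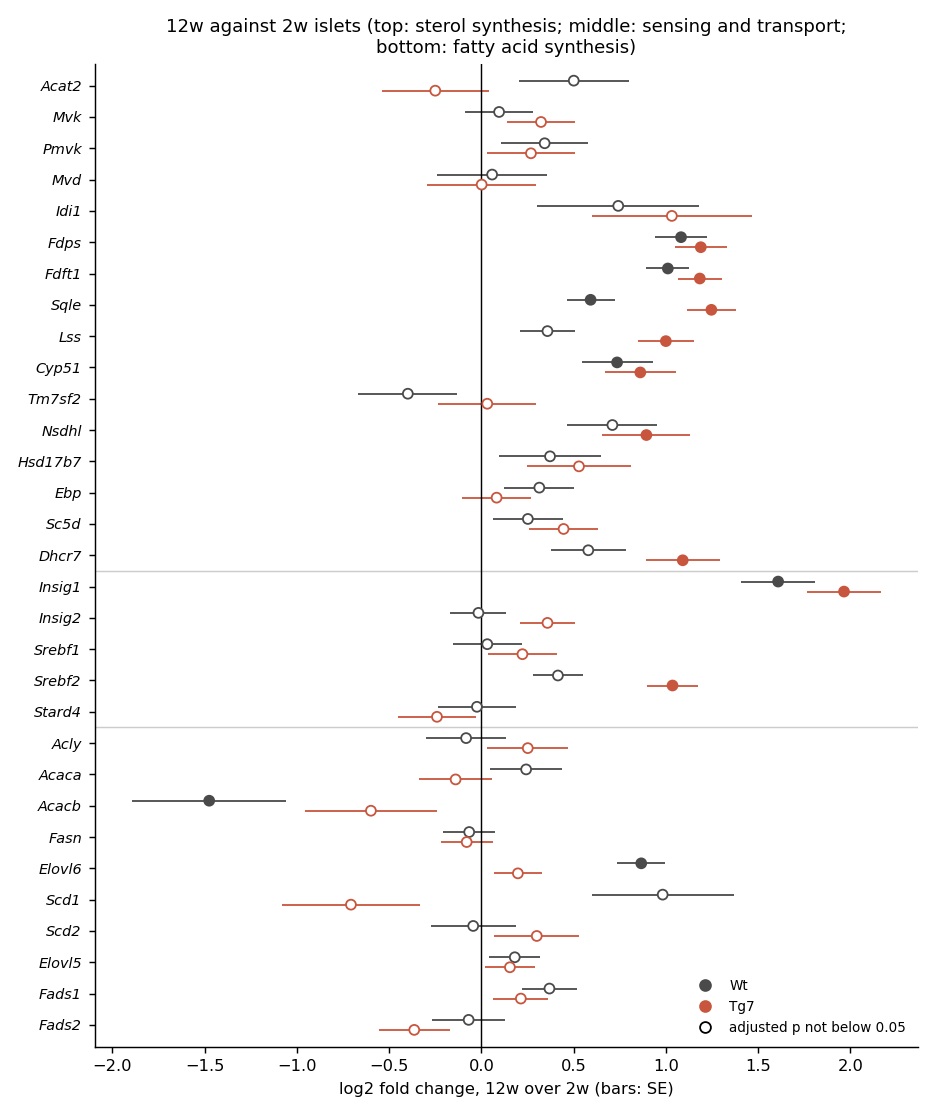
Log2 fold change of 12w over 2w islets (horizontal axis, bars SE) in Wt and Tg7 mice for the 31 members in pathway order, filled where the adjusted p was below 0.05. Filled points right of 0 are 6 in Wt and 9 in Tg7 islets, led by Insig1, and the filled point left of 0 is Acacb in Wt islets.

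Summed over the list, sterol synthesis genes held 489 to 529 CPM in Wt 2w, 347 to 367 in Tg7 2w, 707 to 831 in Wt 12w and 622 to 694 in Tg7 12w. The 4 ranges did not overlap one another under TMM. Sums were not formed with library size alone. That scaling moved the median log2 fold change of the sterol synthesis genes at 12w from −0.12 to 0.33. The order of the genotypes at 12w is therefore relative to TMM. Fatty acid genes held 1773 to 1868 CPM in Wt 2w, 1137 to 1320 in Tg7 2w, 1384 to 2513 in Wt 12w and 1324 to 1417 in Tg7 12w, so the genotypes overlapped at 12w. Acly makes up most of that sum. Without Acly the ranges were 632 to 656, 498 to 539, 588 to 840 and 515 to 551 CPM. Under TMM these did not overlap between genotypes at either age. The sensing and transport genes held 296 to 309, 227 to 254, 314 to 537 and 431 to 432 CPM in the same order of groups.

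**Figure D5:**
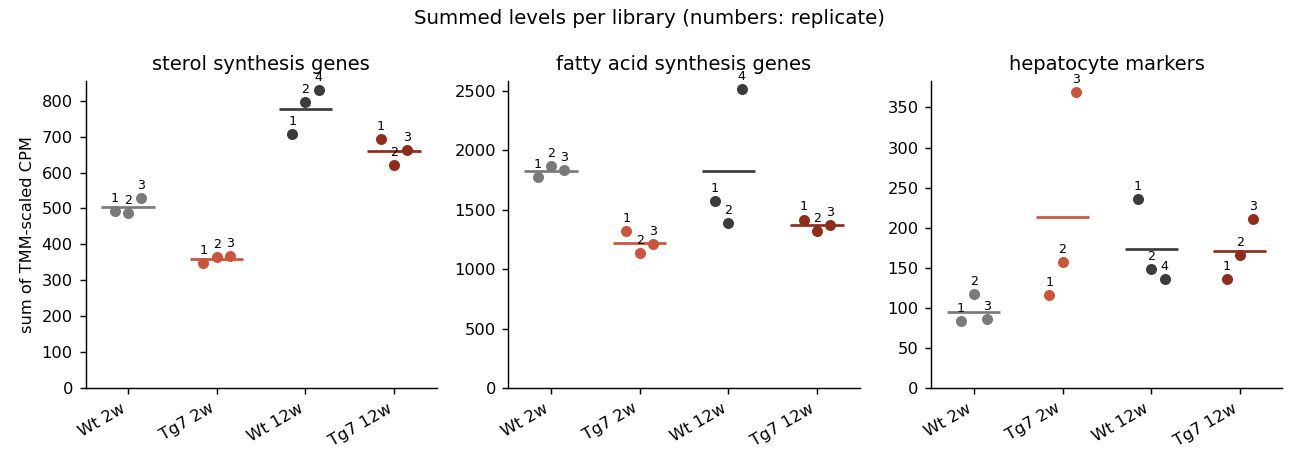
Sum of CPM after TMM scaling (vertical axes, from 0) over the 16 sterol synthesis genes, the 10 fatty acid synthesis genes and the 6 hepatocyte markers, with 1 point per library marked by its replicate number and a line at the group mean. Sterol sums lie lowest in Tg7 2w (347 to 367 CPM), replicate 4 of Wt 12w reaches 2513 CPM in the fatty acid sum, and replicate 3 of Tg7 2w reaches 369 CPM in the hepatocyte sum.

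Replicates lay farthest apart in Wt 12w and closest in Tg7 12w. The median SD of log2 CPM over the 31 members was 0.12 in Wt 2w, 0.18 in Tg7 2w, 0.36 in Wt 12w and 0.08 in Tg7 12w, beside 0.165, 0.211, 0.357 and 0.135 over all tested genes.

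Of 25 tested genes on a list of other lipid synthesis genes, 4 were higher and 3 lower at 2w, where 6.07% and 4.55% of all tested genes were. At 12w 4 were higher and 5 lower, beside 12.5% and 11.2% of all tested genes. Msmo1, the sterol methyl oxidase, stood at 61.2, 44.8 and 53.0 CPM in Wt 2w and at 18.7, 23.9 and 20.9 CPM in Tg7 2w. The log2 fold change was −1.33 (SE 0.16, adjusted p = 0.000141) at 2w and −0.94 (SE 0.15, adjusted p = 0.000571) at 12w. Hsd17b12, a partner of the elongases, was at −0.83 at both ages (adjusted p of 0.00533 and 0.00221), and Dhdds, of dolichol synthesis, at −0.61 at 2w (adjusted p = 0.00878). Fabp5, a fatty acid binding protein, was higher by a log2 fold change of 1.80 at 2w (adjusted p = 0.00327) and 2.54 at 12w (adjusted p = 0.000147). Dgat2, which makes triglyceride, was higher at 1.24 at 2w (adjusted p = 0.00323) and 1.73 at 12w (adjusted p = 9.84e-05). Also at 12w Thrsp, a lipogenic factor, was higher at 1.58 (adjusted p = 0.0152), and Acsl4, an acyl-CoA synthetase, was lower at −1.29 (adjusted p = 0.00177).

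Of 13 genes of SREBP processing and LXR signalling, 0 passed the edgeR test at 2w, where 1 had an unadjusted p below 0.05. At 12w 2 were higher and 1 lower, the latter being Abcg1, a cholesterol exporter, at −0.86 (adjusted p = 0.00659). Of 16 fatty acid oxidation genes, 2 were higher at 2w, and 3 were higher and 2 lower at 12w. At 2w 15 of the 16 estimates were above 0, with a median of 0.32, beside 8373 of 15961 tested genes. An unadjusted p below 0.05 was found for 10 of the 16, beside 4294 of 15961. Their summed level was 1444 CPM in replicate 3 of Tg7 2w, 1130 and 1147 in replicates 1 and 2, and 1112 to 1171 in Wt 2w. All-gene shares at 12w were 12.5% higher and 11.2% lower, and at 2w 6.07% higher, so the 12w counts of both lists lay near them. Ppara, a transcription factor of fatty acid oxidation, was higher at 2w (log2 fold change 2.16, SE 0.62, adjusted p = 0.0408). It stood highest in replicate 3 of Tg7 2w, at 5.76 CPM, the library with the high hepatocyte sum above.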

How the data were processed

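Paired-end libraries of islet RNA (NEB Ultra II kit, HiSeq2500) were processed by the authors with Trimmomatic, TopHat2 2.0.11 (against mm9) and featureCounts, and raw read counts per Ensembl gene were deposited. All 12 count columns were used. Symbols were matched through the NCBIM37 annotation, with older symbols for Msmo1. The members and gene lists were chosen with earlier results of these data known.

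After filterByExpr with its minimum count at 10 and minimum total at 15, counts were scaled with TMM and fitted in edgeR 4.0.16 (R 4.3.3) as 4 group means with glmQLFit and glmQLFTest. Adjusted p values are edgeR's, by Benjamini-Hochberg over all 15961 tested genes, with a threshold of 0.05. SEs are absolute log2 fold changes over the root of F. The common biological coefficient of variation was 0.212. P values measure the spread between pooled libraries. All 31 members are named, and from 3 other lipid lists the 3 highest and 3 lowest called genes per age, of which 1 is not reported here. The alternatives were RLE and upper-quartile factors, library size alone, DESeq2 1.42.0, fits per age, no filter, a stricter filter, a replicate block and each library left out. The fits were tested on simulated data. The lists of acinar, ductal, macrophage, Schwann, alpha, delta and proliferation markers are described with the other observations.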

Additional observations from a re-analysis of the deposited data

How the results depend on the processing

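No called member changed sign under any alternative, and the sign changes that did occur (12 at 2w, 40 at 12w, 41 in the difference, 39 with age in Wt and 15 with age in Tg7 islets) were of members not called in that comparison. Called at 2w in every alternative and without any library were Sqle, Fdps and Elovl5, and at 12w Acacb and Elovl6.

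Members higher at 2w numbered 3 with library size alone and 2 with upper-quartile factors, DESeq2 on all libraries or the stricter filter, and those lower at 2w 3 with library size alone, 12 with DESeq2 and 10 with edgeR on each age alone. At 12w library size alone gave 7 higher and 1 lower. In the difference between ages DESeq2 gave 1 higher and 2 lower, and no filter 1 lower. DESeq2 gave 10 higher with age in Wt islets. Leaving out 1 library gave 0 to 2 higher and 4 to 11 lower at 2w, 1 to 6 higher and 3 to 8 lower at 12w, 0 to 6 higher and 0 to 0 lower in the difference, 4 to 9 higher and 0 to 3 lower with age in Wt, and 8 to 12 higher with age in Tg7 islets. At 2w the lower count was 4 without Wt replicate 3, 5 without Wt replicate 1 or 2, without Tg7 replicate 3 or without Tg7 12w replicate 2 or 3, and Scd1 was lost without Wt replicate 1 or 3, Tg7 replicate 3 or Tg7 12w replicate 2. At 12w the lower count was 3 without Tg7 replicate 2, and the higher count 1 without Tg7 replicate 3 and 6 without Wt replicate 4. Gained without Wt 12w replicate 4 were Fdft1, Srebf1, Acaca and Acacb at 2w, a fall of Acly and Scd2 with age in Wt islets and a rise of Idi1, Sc5d and Insig2 in Tg7 islets. Without Wt 12w replicate 1 Srebf1 was gained at 2w, Pmvk, Srebf1 and Nsdhl at 12w, and Pmvk, Dhcr7 and Srebf2 with age in Wt islets. Without Wt 12w replicate 2 Hsd17b7 was gained at 12w and Nsdhl and Fads1 with age, and without Tg7 2w replicate 3 Scd1 with age in Wt islets. The cause was not tested in any of these cases.

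Replicate numbers did not pair the samples: same-number Tg7 and Wt libraries had residual correlations of −0.0214, −0.167 and −0.0343 at 2w and −0.0894 and −0.0112 at 12w. With the replicate number as a block, members higher at 2w were 2, those lower at 2w 10, those higher at 12w 5, those lower at 12w 4 (Sqle at −0.41 and Fasn at −0.38 were lost), those with a positive difference between ages 4, and those lower with age in Wt islets 3. Replicate 4 of Wt 12w has no partner, so the block leaves it without weight. Calls over all genes in the difference between ages were 502 with the block, beside 188 without it.

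Each group has 3 libraries, each a pool, which limits the precision of every value above.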

Other observations

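Summed levels of the other marker lists are set beside the lipid genes, and a sum can rest on few genes of its list. Summed acinar marker levels were 9.55 to 11.8 CPM in Wt 2w, 20.1 to 26.1 in Tg7 2w, 13.7 to 18.5 in Wt 12w and 14.0 to 14.7 in Tg7 12w. Ductal markers held 541 to 569, 479 to 602, 408 to 595 and 703 to 992 CPM in the same order. Macrophage markers held 45.8 to 62.0, 53.2 to 102, 92.7 to 101 and 78.3 to 82.8 CPM in that order. Schwann cell markers held 14.6 to 23.9, 17.4 to 35.3, 9.13 to 19.3 and 20.2 to 25.4 CPM. In Tg7 12w Spp1 gave 490, 200 and 289 CPM of the ductal sum, against 102, 144 and 142 CPM in Wt 12w. Of 5 tested ductal markers 4 had estimates above 0 at 12w, and Krt19 lay below. Lyz2 gave 62.9 CPM of the macrophage sum in Tg7 2w replicate 1. Cela1 gave 25.5 CPM of the acinar sum in Tg7 2w replicate 3, where Ctrb1 was at 0. The alpha and delta cell lists had no called gene between genotypes in edgeR at either age, and 0 of their genes had an unadjusted p below 0.05. Proliferation markers fell with age (5 of 6 called in each genotype).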
